A study of Mus musculus and Rattus norvegicus with 53 samples.

Results

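The distal stump of the cut mouse sciatic nerve 1 day after transection was compared with the intact nerve, with 1 nerve from 1 animal per library. The members are all 8 single-nerve libraries that the sample titles place at distal day 1 (3 libraries, numbered 0, 1 and 2) or intact (5 libraries, numbered 0, 1, 3, 4 and 5), of 53 samples in the series. All 8 came from separate tdTom-SC mice. In these animals a Cre driven by the promoter of a myelin gene, active in the SC lineage, switches on a Rosa26 tdTomato reporter, so the intact controls carried the Cre and the reporter too. The mice were males and females that were 6 to 8 weeks old at surgery, and the labels name no other allele or agent. The intact nerve was the uncut nerve of the other side in the study's methods, but the day on which the intact single nerves were collected is not given in the labels. tdTomato+ cells were sorted from dissociated nerves, and their RNA was amplified by Smart-seq2 and sequenced. The sort selected for reporter fluorescence and for no Schwann cell protein.

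Schwann cells (SCs) wrap peripheral axons, and the myelinating ones build compact myelin from proteins such as Mbp and Pmp22 under the transcription factor Egr2. When an axon is cut, the segment distal to the cut degenerates, and SCs leave the myelinating state for a progenitor-like repair state in which Jun, neurotrophic factors such as Gdnf, and macrophage-attracting chemokines such as Ccl2 are known to be expressed. Macrophages and neutrophils enter the stump from the blood, and both SCs and macrophages clear myelin debris.

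The libraries held between 9240883 and 18429026 counts on genes in the intact group and between 10731383 and 19899521 at day 1, a difference that did not pass an exact two-sided permutation test (p = 0.48 over 56 arrangements, where the smallest possible p is 0.0179). In 3 libraries, intact 0, intact 1 and day 1 number 1, between 10042 and 11138 genes had a count, against 14045 to 15060 in the other 5. The same 3 libraries gave 17.3% to 37.5% of their counts to Rn45s, the ribosomal RNA precursor, against 0.444% to 2.88% in the others. On log2 CPM, the mean pairwise correlation was 0.667 among these 3 libraries, 0.809 among the other 5 and 0.514 between the sets. By group it was 0.603 among intact and 0.726 among day 1. The intact mean was thus below the mean within either set, and the day 1 mean lay between them. The sets do not follow the groups, since each holds libraries of both, and results are given below with and without the 3. The deposited names also carry a letter, whose meaning is not stated, which is A for all day 1 libraries and for intact 0 and 1, and C for the other intact libraries. Without the 3 libraries, the remaining intact ones all carry C and the remaining day 1 ones all carry A. Group and letter cannot be told apart in the day 1 against intact results without them.

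Levels are given as CPM, the count of a gene as a share of the TMM-scaled counts of its library, not divided by gene length, in the order of the replicate numbers above. In the edgeR quasi-likelihood test, 11 of 7171 genes kept by the study's count rule, applied here to all 35 single-nerve libraries, were higher at day 1 at an adjusted p under 0.05 (0.153% of the genes tested), and none was lower. At an unadjusted p under 0.05 there were 449 genes, 234 higher and 215 lower, with a median log2 fold change of -0.05 over all genes. The 11 were Slc37a2, Ctss, Lyz2, Mpeg1, Fcgr1, Myo1f, Fermt3, Timp1, Cxcl14, Cd44 and Npl, of which 1, Lyz2, is on the list of 15 macrophage markers. All 3 day 1 libraries lay above all 5 intact libraries for each of the 11 genes. These were called on the same libraries, so this describes them and adds no support. Over all genes tested, day 1 was wholly above intact for 193 genes (2.69%) and wholly below for 161 (2.25%). The number called rested on single libraries, being 3 without intact 3, 4 without day 1 number 2, 7 without intact 4 and 20 without intact 1. Without the 3 libraries of few detected genes 9 genes were called, 5 of them among the 11. DESeq2 called 74 genes (51 higher, 23 lower), with all 11 among them. A fit that weights each library by its own scatter (limma) called 244 genes, 3.4% of those tested, of which 164 were higher (2.29%) and 80 lower (1.12%), with 10 of the 11 among them. Its calls are given below as calls with library weights. The weights were 0.117, 0.124 and 0.123 for intact 0, intact 1 and day 1 number 1. The others of the 8 libraries had 0.709 to 3.03, so these calls rest mainly on them, where the letter differs between the groups. Numbers of list members called or not overlapping stand beside the shares over all genes given here. An edgeR fit on the 8 libraries alone called 0 genes, with 219 at an unadjusted p under 0.05. With the letter of the library names as a covariate 9 genes were called, 7 of them among the 11, and among libraries of letter A alone, where only intact 0 and 1 remain as controls, 0 were called, with 981 at an unadjusted p under 0.05.

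**Figure D1:**
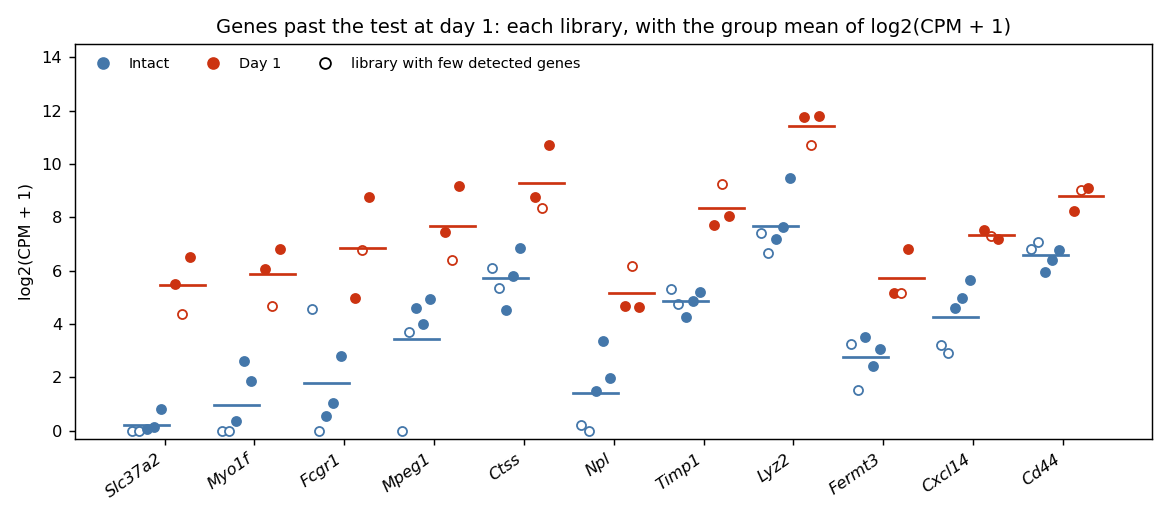
CPM of the genes called between distal day 1 and intact, as log2(CPM + 1) per library, with a horizontal bar at the group mean and open symbols for libraries with few detected genes. For every gene the 3 day 1 points lie above the 5 intact points, open symbols included. The genes were called on these same libraries.

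Slc37a2, a sugar phosphate transporter of the endoplasmic reticulum that is abundant in macrophages, had the largest log2 fold change among the genes of the count rule (mm9 chr9:37036734-37063323, minus strand). It was at 0, 0, 0.0594, 0.114 and 0.77 CPM in the intact nerves and at 44.8, 19.7 and 90.9 CPM at day 1. Intact 5 was the highest of the intact libraries and lay below every day 1 library, and the log2 fold change was 7.76 (SE 0.84, adjusted p = 2.2e-06 in edgeR). It stayed past the threshold without any 1 of the 8 libraries, as Ctss and Cxcl14 did in 7 of 8 such fits, Myo1f and Timp1 in 6, Lyz2 in 5, Fcgr1, Fermt3 and Npl in 3 and Mpeg1 in 2.

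Ctss encodes cathepsin S, a protease of the antigen-presenting lysosome (mm9 chr3:95330708-95360325, plus strand). It stood at 68.3, 39.6, 22.3, 54.9 and 114 CPM in intact and at 438, 323 and 1663 CPM at day 1, so the lowest day 1 library was well above the highest intact one (log2 fold change 3.76, SE 0.62, adjusted p = 0.0029). Lyz2, lysozyme of macrophages and neutrophils (mm9 chr10:116714390-116719377, minus strand), had 169.7, 99.2, 145, 196 and 717 CPM in intact and 3452, 1680.2 and 3609.9 CPM at day 1. Intact number 5 stood apart from the other intact libraries, but still below every day 1 library (log2 fold change 3.46, SE 0.66, adjusted p = 0.013). Mpeg1, a pore-forming protein of macrophages (mm9 chr19:12535269-12539774, plus strand), had 0, 12, 23.5, 15.2 and 29.6 CPM in intact and 173, 83.1 and 573 CPM at day 1 (log2 fold change 4.10, SE 0.88, adjusted p = 0.044).

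Fcgr1, the high-affinity receptor for IgG (mm9 chr3:96086832-96098179, minus strand), had uneven levels within both groups. It was at 22.8, 0, 0.475, 1.08 and 6.05 CPM in intact and at 30.4, 109 and 428 CPM at day 1, so intact 0 came close to the lowest day 1 library (log2 fold change 4.97, SE 1.07, adjusted p = 0.044). Myo1f, an unconventional myosin of leukocytes (mm9 chr17:33692664-33744709, plus strand), had 0, 0, 0.297, 5.07 and 2.64 CPM in intact and 66.7, 24.8 and 113 CPM at day 1. No intact library came near the day 1 range (log2 fold change 5.32, SE 0.97, adjusted p = 0.011). Fermt3, which activates integrins in blood cells (mm9 chr19:7073448-7093959, minus strand), had at most 10.3 CPM in intact and at least 34.6 CPM at day 1 (log2 fold change 3.22, SE 0.66, adjusted p = 0.032).

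Timp1, a secreted inhibitor of metalloproteinases (mm9 chrX:20447292-20451861, plus strand), had 38.9, 26, 18.1, 28.3 and 35.5 CPM in intact and 207, 609 and 265 CPM at day 1, with little spread among the intact nerves (log2 fold change 3.62, SE 0.67, adjusted p = 0.011). Cxcl14, a chemokine (mm9 chr13:56390008-56397912, minus strand), had 8.38, 6.6, 23.5, 30.2 and 49.7 CPM in intact and 184, 157 and 146 CPM at day 1, where the 3 nerves nearly coincided (log2 fold change 2.77, SE 0.52, adjusted p = 0.011). Cd44, the hyaluronan receptor, had 112, 133, 60.9, 82.8 and 108 CPM in intact and 303, 523 and 552 CPM at day 1 (log2 fold change 2.21, SE 0.36, adjusted p = 0.0029). It is named as the one remaining call beyond the 10 largest rises. Npl, a lyase that breaks down sialic acid (mm9 chr1:155350146-155396844, minus strand), had at most 9.4 CPM in intact and at least 23.9 CPM at day 1 (log2 fold change 3.75, SE 0.79, adjusted p = 0.035), and was the call of the 11 that library weights did not make (adjusted p = 0.095 in limma).

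No gene passed the edgeR test downward, and the values of those nearest to it follow. Ptn, the growth factor pleiotrophin, had 181, 109, 57.8, 191 and 163 CPM in intact and 31.7, 39.2 and 20.6 CPM at day 1 (log2 fold change -2.20, SE 0.53, adjusted p = 0.096). Laptm4b, a lysosomal membrane protein, had 824, 494, 220.4, 188 and 149.7 CPM in intact and 63.5, 139 and 65.8 CPM at day 1 (log2 fold change -2.07, SE 0.50, adjusted p = 0.097). For both genes day 1 lay wholly below intact, and with library weights both were called (adjusted p = 0.0023 and 0.0021 in limma). Bsg, the membrane glycoprotein basigin, ranged from 1033 to 3642 CPM in intact and from 556 to 879 CPM at day 1 (log2 fold change -1.50, SE 0.37), and H1f0, a linker histone of resting cells, from 377 to 779 CPM and from 218 to 243 CPM (log2 fold change -1.32, SE 0.40). Their adjusted p were 0.103 and 0.28 in edgeR and 0.0073 and 0.0021 with library weights. Rasa1, which restrains Ras, had at least 34.7 CPM in intact and at most 18.9 CPM at day 1 and passed neither test (adjusted p = 0.15 in edgeR and 0.12 in limma).

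**Figure D2:**
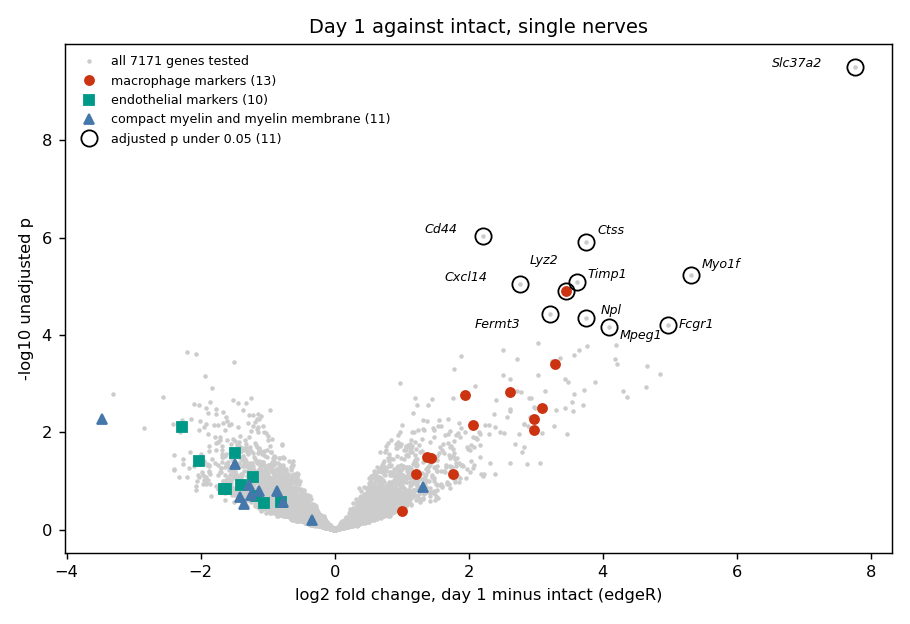
Log2 fold change of distal day 1 over intact against -log10 of the unadjusted edgeR p, for the 7171 genes tested. The 11 called genes are ringed and all lie to the right; the 13 tested macrophage markers lie at positive fold changes, the 10 endothelial markers at negative ones, and 10 of 11 compact myelin genes at negative ones with none called.

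The study's filter drops genes that are silent in most libraries, so a second fit covered 15519 genes and called 28 of them (0.18%), all higher at day 1. The number was 4 without day 1 number 2, 11 without intact 0, 17 without intact 3 or intact 5, 18 without day 1 number 1 and 10 without the 3 libraries of few detected genes. DESeq2 called 289 (181 higher, 108 lower). A gene that entered this fit through its level at day 1 had to differ, so the levels are a description. Over the wider set, day 1 was wholly above intact for 427 genes (2.75%) and wholly below for 244 (1.57%). Cxcl5, a chemokine that attracts neutrophils, was at 0, 0, 0, 0.057 and 0 CPM in intact and at 14.3, 311 and 140.3 CPM at day 1 (adjusted p = 0.0096 in edgeR). Chil3, a lectin secreted by activated macrophages and neutrophils, was at or below 1.31 CPM in every intact library and at 212, 188 and 256 CPM at day 1 (adjusted p = 0.045). Day 1 was wholly above intact for both. Tlr13, an endosomal receptor for bacterial RNA, was at 0 in all 5 intact libraries and at 38, 0.271 and 129 CPM at day 1 (adjusted p = 0.0094), so in the day 1 library with few detected genes it was near the level of a few counts. Mcoln2, an endolysosomal channel, and Cd200r1, an inhibitory receptor of myeloid cells, were at most 0.055 CPM in intact and at least 12.8 and 3.8 CPM at day 1 (adjusted p = 0.034 and 0.0497).

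Calls of the wider set that the naming rule did not take include further leukocyte genes, picked here after their values were seen. Itgam, the CD11b integrin chain, had at most 4.4 CPM in intact and 63, 42.3 and 192 CPM at day 1 (adjusted p = 0.0094). Aif1, the calcium-binding protein of macrophages also called Iba1, had 2.79, 13.6, 1.37, 2.39 and 5.33 CPM in intact and 39.8, 49.2 and 136 CPM at day 1 (adjusted p = 0.034). Serpinb2, an inhibitor of plasminogen activators, had at most 0.11 CPM in intact and 4.52, 56.3 and 8.79 CPM at day 1 (adjusted p = 0.032). Groups did not overlap for any of the 3 genes.

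Markers of cells other than SCs differed between the same libraries. In bulk RNA, fewer cells of a type and less RNA per cell cannot be told apart. Of 15 macrophage markers 13 were tested, and all 13 had positive log2 fold changes (median 2.07). In edgeR 1 of the 13 was called (Lyz2), with library weights 11 were, and 7 had all day 1 libraries above all intact ones. The matching shares over all genes tested were 0.153%, 2.29% and 2.69%. Their summed level ran from 364 to 1585 CPM in intact and from 4302 to 7431 CPM at day 1. C1qa, a subunit of complement C1q made by tissue macrophages, overlapped, at 131, 178, 6.59, 35 and 84.6 CPM in intact and 149, 181 and 272 CPM at day 1. Emr1, the F4/80 antigen, had 7.76, 0, 21, 16.6 and 19.5 CPM in intact and 71.9, 40.1 and 130.4 CPM at day 1 (adjusted p = 0.22 in edgeR and 0.041 with library weights). Csf1r, the receptor for the macrophage growth factor CSF1, was at 9.76 CPM in day 1 number 1, below every intact library, and at 217 and 263 CPM in the other day 1 libraries. The part of macrophage RNA in the rise of the called genes was not tested.

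No neutrophil marker passed the study's filter. The 8 listed neutrophil markers summed to 2.09 to 9.08 CPM in intact and to 81 to 115 CPM at day 1, and 5 of the 8 were at 0 in all intact libraries. S100a8, a calcium-binding protein stored in neutrophils, had 0, 0, 0.713, 0 and 0 CPM in intact and 23.6, 83.5 and 13 CPM at day 1 (adjusted p = 0.36 in the wider set), and its partner S100a9 was at 0 in every intact library and at 6.99, 19.1 and 6.14 CPM at day 1 (adjusted p = 0.39). Day 1 was above intact in every library for both, without passing the test.

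All 10 endothelial markers were tested, none was called by edgeR, library weights called 2 lower (Cldn5 and Cdh5), 1 had non-overlapping libraries (Cldn5), and all 10 had negative log2 fold changes (median -1.44). Of all genes tested, library weights called 1.12% lower and 2.25% lay wholly below intact. Their summed level ran from 1930 to 6059 CPM in intact and from 1050 to 1684 CPM at day 1. Cldn5, the tight junction protein of blood vessel endothelium, had 3106, 1281, 949, 1568 and 1633 CPM in intact and 286, 408 and 362 CPM at day 1 (log2 fold change -2.28, SE 0.80, adjusted p = 0.42 in edgeR and 0.022 with library weights). Day 1 was below intact throughout for Cldn5, while Pecam1, the platelet endothelial adhesion molecule, overlapped, with 14.4 to 1531 CPM in intact and 53.7 to 328 CPM at day 1. Mural markers (932 to 5005 CPM in intact, 2933 to 5202 at day 1) and fibroblast markers (25090 to 32759 CPM and 14589 to 39713) overlapped. Mast cell markers summed to 7.69 to 854 CPM in intact and 53.3 to 404 at day 1, and lymphocyte markers to at most 6.49 and 20.5 CPM. Adipocyte markers summed to at most 93.5 CPM in intact and 235 CPM at day 1, skeletal muscle markers to at most 10.2 and 20.6 CPM, and erythroid markers to at most 4.22 and 1.61 CPM.

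**Figure D3:**
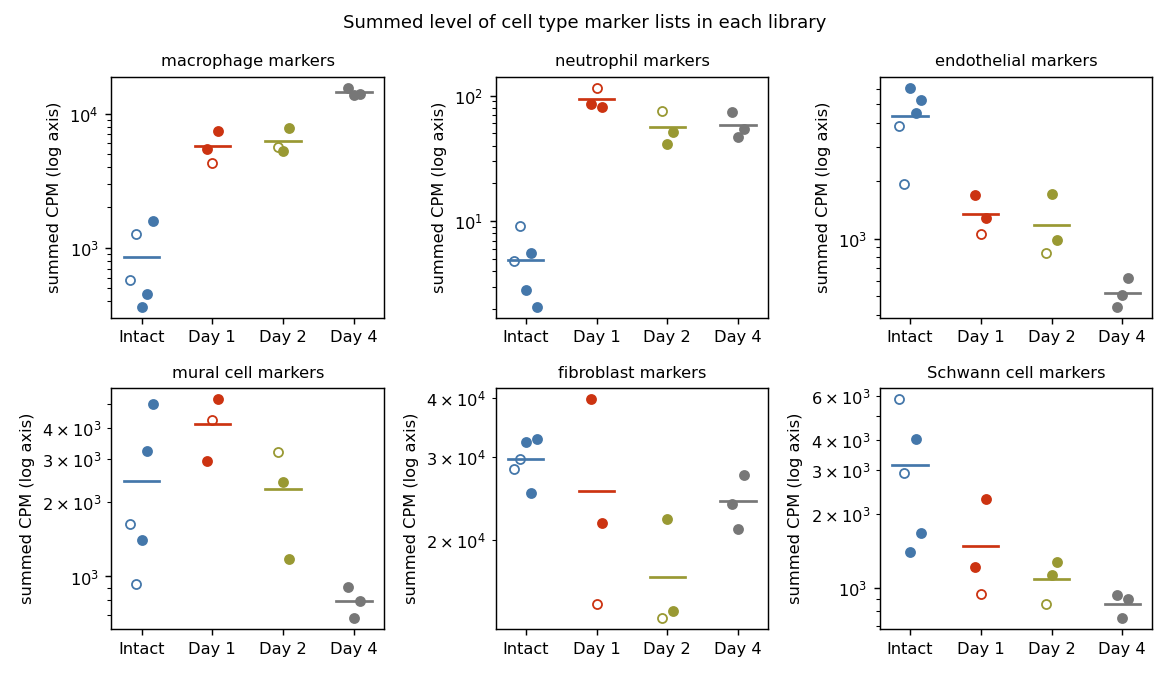
Summed CPM of the markers of 6 cell types per library, in intact and at distal days 1, 2 and 4, on a log axis, with horizontal bars at the group mean and open symbols for libraries with few detected genes (day 2 number 0 included). The macrophage sums do not overlap (364 to 1585 CPM in intact, 4302 to 7431 CPM at day 1), nor do the neutrophil and endothelial sums, and the sums of Schwann cell markers do.

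The labelled cell type was checked against its own markers. The 8 Schwann cell markers summed to 1390 to 5824 CPM in intact and 939 to 2291 CPM at day 1, and 5 were tested, all at negative log2 fold changes (median -1.11), none called. Sox10, the transcription factor that defines the lineage, was present in every library, at 32.4, 46, 35.1, 119 and 22.8 CPM in intact and 20.8, 7.46 and 79.4 CPM at day 1 (log2 fold change -0.51, SE 0.66).

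Myelin genes did not pass the test at day 1. Of 22 compact myelin genes 11 were tested, none was called by either test, none had non-overlapping groups, and the median log2 fold change was -1.25. Without the 3 libraries of few detected genes that median was -0.46. Pmp22, a membrane protein of compact myelin, had 20186, 6451, 2156, 9482 and 3860.2 CPM in intact and 2480.2, 5512 and 5914 CPM at day 1 (log2 fold change -0.86, SE 0.60, adjusted p = 0.98 in edgeR). The intact libraries spanned more than the day 1 ones, with intact 0 the highest. Mbp, the basic protein of compact myelin, had 10856, 4622, 4378, 6215 and 1747 CPM in intact and 1241, 2131 and 3649.6 CPM at day 1, and the groups overlapped (log2 fold change -1.25, SE 0.94, adjusted p = 0.999). Egr2, the factor that drives myelination, had a log2 fold change of 0.22 (SE 0.81).

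Of the 20 immature and repair Schwann cell genes 7 passed the study's filter and none was called by edgeR. Jun, the factor associated with the repair state, had 203, 28.1, 776, 843 and 635 CPM in intact and 703, 123 and 458 CPM at day 1 (log2 fold change -0.22, SE 0.74), with the lowest value of each group in a library of few detected genes. Gdnf, a neurotrophic factor, had 0, 0, 0, 2.96 and 0.11 CPM in intact and 9.58, 10.3 and 28.4 CPM at day 1 (adjusted p = 0.52 in the wider set). Ucn2, a peptide hormone of the urocortin family, had 0, 0, 0, 10 and 0.055 CPM in intact and 104, 267 and 143 CPM at day 1 (adjusted p = 0.15). Day 1 was wholly above intact for Gdnf, Ucn2 and Runx2, but none passed the test. Over the wider set day 1 was wholly above intact for 2.75% of all genes. Shh, the morphogen sonic hedgehog, had 16.2, 0.407 and 24.3 CPM at day 1 against 0.413 to 3.36 CPM in intact, and the groups overlapped through day 1 number 1. Ngfr, the low-affinity neurotrophin receptor of non-myelinating SCs, overlapped too, with 63.7, 9.49 and 243 CPM at day 1 against 30.5 to 143 CPM in intact.

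Cdh2, which encodes N-cadherin, was the repair list member that library weights called lower. It had 147, 84, 37.1, 128 and 23.1 CPM in intact and 10.8, 18.2 and 22.7 CPM at day 1, where the highest day 1 value was just under the lowest intact one (log2 fold change -2.28, SE 0.76, adjusted p = 0.39 in edgeR and 0.047 in limma).

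Of 28 cytokine and chemokine genes 13 were tested. None of the 13 was called by edgeR, and library weights called Ccl2 and Ccl7, both higher (2.29% of all genes tested were). Cxcl5, a list member outside the study's filter, was called in the wider set (adjusted p = 0.0096 in edgeR). Of that set 0.18% was called, with the limit stated above for genes that entered through day 1. Ccl7, an attractant of monocytes, had 34.3, 115, 11.2, 12.7 and 64.2 CPM in intact and 577, 657 and 1345 CPM at day 1 (log2 fold change 4.18, SE 1.03, adjusted p = 0.098 in edgeR and 0.0021 in limma). Ccl2, its neighbour on chromosome 11 and the main chemokine that draws monocytes to the nerve, had 155, 94.5, 15.4, 29.7 and 90.1 CPM in intact and 365, 848 and 1071 CPM at day 1 (log2 fold change 3.31, SE 1.04, adjusted p = 0.31 and 0.017). All day 1 libraries exceeded all intact libraries for both. Il6, the inflammatory cytokine interleukin 6, had at most 3.74 CPM in intact and 36.5, 12.5 and 7.18 CPM at day 1, without overlap but with an adjusted p of 0.74 in the wider set.

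Of 36 genes for matrix, proteases and their inhibitors 32 were tested and Timp1 alone was called by edgeR (median log2 fold change 0.07). Library weights also called Mmp3, the metalloproteinase stromelysin, and Spp1, the secreted phosphoprotein osteopontin (2.29% of all genes tested were called higher). Mmp3 had 0.155, 36.1, 40.3, 15.6 and 78.4 CPM in intact and 606, 452 and 277 CPM at day 1 (log2 fold change 3.70, SE 1.14, adjusted p = 0.29 in edgeR and 0.0026 in limma). Spp1 had 1123, 297, 331, 476 and 247 CPM in intact and 1775, 1927 and 2358 CPM at day 1 (log2 fold change 2.03, SE 0.81, adjusted p = 0.62 and 0.037). Day 1 was above intact in every library for both. Plaur, the urokinase receptor, was above intact in every day 1 library too, at 87, 54.1 and 110.1 CPM against at most 42.5 CPM, and passed neither test (adjusted p = 0.71 and 0.063).

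Of the 28 listed genes of cell contact 21 were tested, none was called by edgeR, and library weights called Itgb4, Itga6, Cldn1 and Cldn5 lower (median log2 fold change of the 21 -0.55). They called 1.12% of all genes tested lower. Cldn1, a tight junction protein of perineurium and SC incisures, had 348, 486, 571, 379 and 167 CPM in intact and 72.5, 122 and 107 CPM at day 1 (log2 fold change -1.95, SE 0.68, adjusted p = 0.42 in edgeR and 0.022 in limma). Itga6, the laminin receptor chain that pairs with Itgb4, had 521, 426, 396, 515 and 186 CPM in intact and 113, 131 and 155 CPM at day 1 (log2 fold change -1.62, SE 0.53, adjusted p = 0.37 and 0.035). Day 1 was wholly below intact for both. Endothelial cells also express Cldn5 and Itga6, and the endothelial sums above were lower in the same libraries; their part in these values was not tested.

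**Figure D4:**
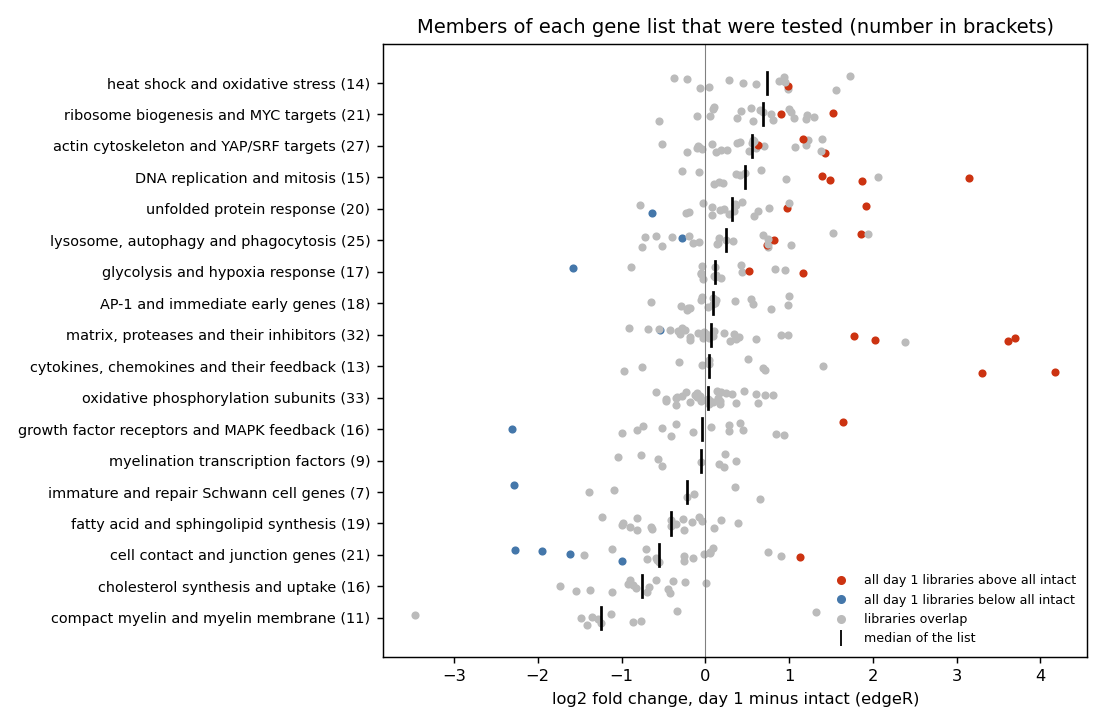
Log2 fold change of day 1 over intact for each tested member of each pathway list, with a black bar at the median. Members are red where all 3 day 1 libraries lie above all 5 intact ones, blue where below, and grey where the groups overlap; most members are grey, and compact myelin has its median at -1.25 with no coloured member.

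Chaperones of the endoplasmic reticulum fold secreted proteins. Of 22 unfolded protein response genes 20 were tested, none was called by edgeR, and library weights called Calr, Pdia6, Sdf2l1 and Creld2 higher (median log2 fold change 0.32). They called 2.29% of all genes tested higher. Calr, the calcium-binding chaperone calreticulin, had 292, 409, 437, 341 and 449.8 CPM in intact and 803, 741 and 732 CPM at day 1, a narrow range in each group with no overlap (log2 fold change 0.98, SE 0.27, adjusted p = 0.18 in edgeR and 0.0029 in limma). Pdia6, a disulfide isomerase, had 241, 254, 451, 327 and 321 CPM in intact and 581, 404 and 639 CPM at day 1, with day 1 number 1 inside the intact range (log2 fold change 0.76, SE 0.31, adjusted p = 0.62 and 0.02).

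Promoter sequences of 250 bases before each gene's start (RefSeq, GRCm38.p6, while the deposited data use mm9) were searched on both strands for letter patterns. A gene counts as matching if any of its promoters does. The ER stress response element is spelled CCAAT, any 9 letters and then CCACG. It was in 7 of the 20 unfolded protein response genes with a promoter sequence (35%) and in 0.13% of all 27025 such genes. The windows of 2 members that library weights called are shown with the element in capitals, from chr8:84847070-84847099 on the minus strand and from chr12:17266485-17266514 on the plus strand; that of Calr reads on the opposite strand of the gene.
Calr: acaacgCGTGGTCGACCCTCATTGGcccat
Pdia6: cagagaCCAATGAAAGGCGGCCACGgcgtg

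The AP-1 pattern TGANTCA matches the site bound by Fos and Jun dimers. It was in 2 of the 22 called genes of either fit that have a promoter sequence. Of matrix and protease genes with one, 3 of 22 held it (13.6%), and 7.82% of all genes with one did. The windows of the called genes and of the most strongly differing protease are shown with the pattern in capitals. They lie at chr9:37255828-37255857 (minus strand), chr1:107511317-107511346 (plus) and chr9:7445764-7445793 (plus).
Slc37a2: gcccgcagatcaTGAGTCAgcgcggtggtc
Serpinb2: tgagtaaaatgtTGAATCAtacaaagaata
Mmp3: tggaagcaattaTGAGTCAgttttcgggtg
A match describes the letters of this window and is not evidence of binding. Fosl1, an AP-1 subunit, had 0, 0, 2.38, 0 and 0 CPM in intact and 12.7, 19.9 and 27.3 CPM at day 1, without overlap (adjusted p = 0.52 in the wider set). The other 21 members of the immediate early list had overlapping groups, and none of the 18 tested was called by either test (median log2 fold change 0.09).

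Growth and metabolism lists held a few members that stood apart. Of 26 DNA replication and mitosis genes 15 were tested. None was called by edgeR, and library weights called 1 higher (2.29% of all genes tested were). Mcm2, Mcm3, Mcm5 and Mcm7, subunits of the replicative helicase, had all day 1 libraries above all intact ones. That was so for 2.69% of all genes tested. Mcm5 had 0.155, 0, 13.1, 14.8 and 11.1 CPM in intact and 50.7, 98.4 and 61.5 CPM at day 1 (log2 fold change 3.15, SE 0.89, adjusted p = 0.22 in edgeR and 0.071 in limma). The proliferation marker Mki67 overlapped between the groups, with 0, 0, 56.8, 1.71 and 0.165 CPM in intact and 2.91, 0 and 8.51 CPM at day 1. The mitotic cyclin Ccnb1 was likewise highest in intact 3, at 48.9 CPM.

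Of 24 glycolysis and hypoxia genes 17 were tested and none was called by edgeR. Library weights called 2 higher, Gapdh among them (2.29% of all genes tested were). Gapdh, a core glycolytic enzyme whose many processed copies in the genome make its count uncertain, had 287, 159, 258, 257 and 262 CPM in intact and 448, 598 and 605 CPM at day 1 (log2 fold change 1.17, SE 0.37, adjusted p = 0.34 in edgeR and 0.035 in limma). Slc2a1, the glucose transporter GLUT1 of perineurium and endothelium, lay the other way, with 1485, 559, 1404, 784 and 546 CPM in intact and 253, 326 and 378 CPM at day 1 (log2 fold change -1.58, SE 0.55, adjusted p = 0.42 and 0.054). The groups did not overlap for either gene. Of all genes tested, 2.69% had day 1 wholly above intact and 2.25% wholly below. The glycolysis median was 0.12, and -0.02 without the 3 libraries of few detected genes. The 33 oxidative phosphorylation subunits had a median log2 fold change of 0.03, which was 0.58 without the 3 libraries of few detected genes, and none was called.

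Genes of lipid synthesis had negative medians, -0.76 over 16 cholesterol genes and -0.41 over 19 fatty acid and sphingolipid genes, with none called by edgeR. Without the 3 libraries of few detected genes these medians were -0.41 and -0.44. Library weights called 2 of these lower (1.12% of all genes tested were), the fatty acid elongase Elovl5 and the sphingomyelin synthase Sgms1, and in both the groups overlapped. Of 28 actin cytoskeleton genes 27 were tested and none was called by edgeR, while library weights called Actb, Flna, Tubb6 and Tuba1c higher (median log2 fold change 0.55). They called 2.29% of all genes tested higher. Actb, cytoplasmic actin, which also has near-identical copies, had 5823, 9740.5, 1766, 5409 and 7227 CPM in intact and 9658, 22363 and 14788 CPM at day 1, with intact 1 just above the lowest day 1 library (log2 fold change 1.38, SE 0.47, adjusted p = 0.403 in edgeR and 0.041 in limma). Among 27 growth factor receptor and MAPK feedback genes, 16 tested and none called, Gfra1, the receptor chain for GDNF, had 23.7, 19.2, 41.2, 54.4 and 48.1 CPM in intact and 129.9, 60.3 and 161 CPM at day 1 (log2 fold change 1.65, SE 0.61, adjusted p = 0.49).

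Of 27 lysosome and phagocytosis genes 25 were tested, none was called by edgeR (median log2 fold change 0.24), and library weights called Npc2 and Lgals3 higher (2.29% of all genes tested were). Lgals3, a galectin of macrophages and phagocytic SCs, had 339.5, 425, 36.4, 149.7 and 78.6 CPM in intact and 387, 853 and 1139 CPM at day 1, with intact 1 above the lowest day 1 library (log2 fold change 1.95, SE 0.71, adjusted p = 0.46 in edgeR and 0.011 in limma). The macrophage sums were higher in the same day 1 libraries, and their part in this value was not tested. Of 20 heat shock and oxidative stress genes 14 were tested and none was called by edgeR (median log2 fold change 0.74), where the mitochondrial chaperone Hspd1 was called by library weights (log2 fold change 0.95, SE 0.35, adjusted p = 0.49 in edgeR and 0.022 in limma). Of 26 ribosome biogenesis genes 21 were tested and none was called by either test (median 0.69), and the same held for 9 tested of 12 myelination transcription factors (median -0.05).

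Day 1 was last set against the later distal stumps, 3 single nerves each at day 2 and day 4. These contrasts compare distal libraries only, while the spread is shared with all 35 libraries of the fit, intact ones included. Against day 2 edgeR called no gene of 7171 (0%), with 187 at an unadjusted p under 0.05. DESeq2 called 2 and library weights 295 (4.11%), 182 higher (2.54%) and 113 lower (1.58%) at day 1. Day 2 number 0 also had few detected genes (10306, with 38.6% of its counts on Rn45s) but is not among the 3 libraries left out. It weighed 0.137 in the weighted fit, against 5.73 and 6.62 for the other day 2 libraries. Without day 2 number 0 edgeR again called 0 genes, with 157 at an unadjusted p under 0.05. All day 1 libraries lay above all day 2 ones for 346 genes (4.82%) and below for 385 (5.37%). Against day 4 edgeR called 4 genes (0.0558%), 1 higher (0.0139%) and 3 lower (0.0418%) at day 1, with 716 at an unadjusted p under 0.05. The number was 1 without day 1 number 1, day 1 number 2 or day 4 number 1, 2 without day 1 number 0, 3 without either other day 4 library and 1 without the 3 libraries of few detected genes. With only the groups compared in the fit it was 1, a gene not among the 4. DESeq2 called 115 and library weights 33 (0.46%), 8 higher (0.112%) and 25 lower (0.349%). All day 1 libraries lay above all day 4 ones for 623 genes (8.69%) and below for 817 (11.4%).

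Pmp22 was the gene higher at day 1 than at day 4, with 2480.2, 5512 and 5914 CPM at day 1, 1128, 1210.0 and 1610.5 CPM at day 2 and 352, 409.8 and 324 CPM at day 4 (log2 fold change of day 1 over day 4 3.68, SE 0.72, adjusted p = 0.034 in edgeR). The 3 times did not overlap, and day 1 was inside the intact range. Fbn2, an elastic fibre protein of developing tissue, had 0.861, 7.19 and 17.4 CPM at day 1 and 172, 246 and 256 CPM at day 4 (log2 fold change -4.73, SE 0.67, adjusted p = 0.00049). H19, an imprinted RNA of fetal tissue, had 26.8, 52.7 and 71.8 CPM at day 1 and 465, 949 and 693 CPM at day 4 (log2 fold change -3.80, SE 0.67, adjusted p = 0.0093). Ckap4, a membrane protein of the endoplasmic reticulum, had 50.6, 46.6 and 46.8 CPM at day 1 and 167, 462 and 346 CPM at day 4 (log2 fold change -2.76, SE 0.49, adjusted p = 0.0093). Day 1 was wholly below day 4 for these 3 genes and overlapped intact. Of the 6 fits that leave out 1 library, Fbn2 stayed past the threshold in 6, H19 and Ckap4 in 2 and Pmp22 in 1, with adjusted p up to 0.345 for Pmp22.

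Other values that differed between the distal times follow, and edgeR called none of these genes. Shh did not pass the study's filter and the macrophage sum is not a gene, so neither was tested in these contrasts. Cxcl14 was at 146 to 184 CPM at day 1 and at 262 to 379 CPM at day 2. At day 4 it was at 27 to 49.5 CPM, within its intact range of 6.6 to 49.7 CPM. Shh was at 111, 173 and 244 CPM at day 2 and Ngfr at 491 to 846 CPM at day 4, and both overlapped intact at day 1. The macrophage sum was 13800 to 15511 CPM at day 4, above every day 1 library.

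**Figure D5:**
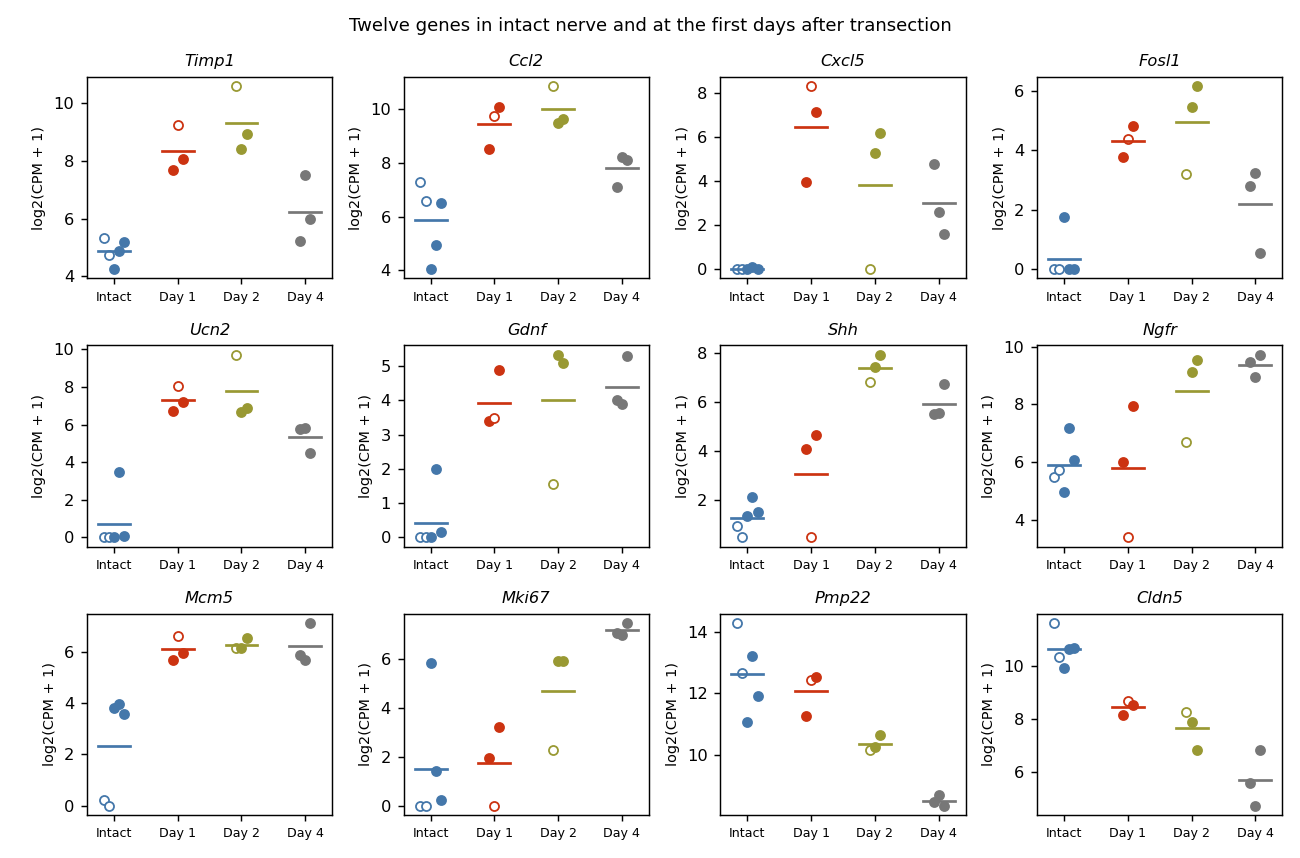
CPM as log2(CPM + 1) per library for 12 genes in intact and at distal days 1, 2 and 4, with bars at the group mean and open symbols for libraries with few detected genes (day 2 number 0 included). Timp1, Ccl2, Cxcl5 and Ucn2 are above intact at day 1, Ngfr and Mki67 overlap intact at day 1, and Pmp22 at day 1 lies within the intact range and above day 4.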

How the data were processed

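The deposited values are raw read counts per gene (HTSeq), which the authors obtained from Smart-seq2 reads aligned with TopHat2 2.0.11 to mm9. The share of reads outside genes was 54.5% to 58.3%, and these summary rows and the 92 ERCC spike-ins were left out of library sizes. All 35 single-nerve libraries (11 groups) entered 1 edgeR 4.0.16 quasi-likelihood fit (R 4.3.3, TMM, Benjamini-Hochberg, no covariate), so the spread is shared with libraries not described here. The study's filter keeps genes with at least 100 counts in at least 85% of libraries. It was applied here to all 35 libraries, whereas the study first removed libraries with few detectable genes and kept fewer intact nerves, so the gene set is not the study's own. The wider set used filterByExpr. SE is the log2 fold change divided by the square root of F, an approximation. Alternatives used DESeq2 1.42.0 and limma 3.58.1 with voom quality weights. The steps were tested on simulated data. Library numbers do not pair animals, since all animals differ. Deviations of the 2 same-numbered pairs correlated at -0.369 and 0.473, the latter between 2 libraries of few detected genes. Those of the 13 pairs with different numbers ran from -0.533 to 0.467. So few same-numbered pairs cannot decide on pairing, and no conclusion is drawn from them.

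The comparison and the gene lists were chosen with earlier results of these data known. Named genes are the 10 largest rises and falls of the first fit with non-overlapping libraries, the 5 largest of the wider set, the first members of each list, and the 5 largest against each later day, filled by smallest p where too few passed. Others are named after their values were seen. Some genes are not reported here.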

Additional observations from a re-analysis of the deposited data

Results flagged for a closer look

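Among 48 genes searched for an intact library far from the other 4, 10 were flagged. A chance rate of about 1 in 20 groups assumes normally distributed values. Any count beside 4 zeros is flagged, so that rate does not hold for genes near 0. Intact 5 was far above the other intact libraries for Slc37a2 (0.77 CPM, next 0.114), Lyz2 (717 CPM, next 196), Cd200r1 (0.055 CPM) and Mcoln2 (0.055 CPM), where the others were at 0 for the last pair. Intact 0 stood apart for Fcgr1 (22.8 CPM, next 6.05) and Hexa, a lysosomal hexosaminidase (444 CPM). Intact 1 stood apart for Atrn, the transmembrane protein attractin (174 CPM, next 86.1), intact 3 for Ifit3, an interferon-induced gene (464 CPM, next 88.1), and intact 4 for Cxcl5 (0.057 CPM) and Chil3 (1.31 CPM, next 0.055). For Slc37a2, Cxcl5, Cd200r1, Mcoln2 and Chil3 the distant value is itself at most 1.31 CPM and lies below every day 1 library. For Cxcl5, Cd200r1 and Mcoln2 it is the level of 1 count.

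The change from day 1 to day 4 of the distal stump was tested in edgeR and passed for 4 genes, with log2 fold changes of day 1 over day 4 of -2.76 for Ckap4, -4.73 for Fbn2, -3.80 for H19 and 3.68 for Pmp22.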

How the results depend on the processing

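The number of genes called between day 1 and intact depended on the spread model and the genes entered. From 11 genes of the study filter it went to 74 with DESeq2, 244 with library weights, 30 with no filter, 28 with filterByExpr, 4 with the filter applied to the 8 libraries alone, 0 with only the 8 libraries in the fit and 0 with only libraries of letter A (the latter with a median log2 fold change of 0.17 over all genes; both enter fewer samples). In the wider set 28 became 289 with DESeq2, 236 with library weights, 15 with the letter as a covariate, 10 without the 3 libraries of few detected genes and 1 with only the 8 libraries. Against day 2, 0 became 2 with DESeq2 and 295 with library weights. Against day 4, 4 became 115 with DESeq2, 33 with library weights, 1 without the 3 libraries and 1 with only the groups compared. The causes were not tested. Leaving out 1 library gave 3 to 20 genes of the study filter, 4 to 25 of the wider set, 0 against day 2 throughout and 1 to 3 against day 4. The replicate block gave 16 genes, 22 in the wider set, 0 against day 2 and 3 against day 4; 7 of the 11 calls were among the 16. Leaving out Rn45s, added after the data were seen, gave 11 and 28. Of the called genes recomputed one by one (the 10 largest rises, the 5 largest of the wider set and the 4 against day 4), none reversed direction under these settings. Medians near 0 did change sign, that of glycolysis from 0.12 to -0.02 without the 3 libraries, that of oxidative phosphorylation from 0.03 to -0.04 with DESeq2, that of AP-1 genes from 0.09 to -0.07 with library weights, and that of all genes from -0.05 to 0.12 with the replicate block (0.41 in the wider set). Depth limits genes at or under 3 counts, which is 0.165 to 0.619 CPM in the intact libraries.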
